A study of Mus musculus with 16 samples.

Results

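Hair follicle stem cells (HFSC) from old mice that carry a human COL17A1 transgene (hCOL17A1 tg) were compared with HFSC from old wild-type mice. The comparison uses 4 of the 16 microarrays of the series, which are all the arrays of HFSC from mice aged 25-26 months. They are WT (C57BL/6) tHFSC, WT aHFSC, hCOL17A1 tg tHFSC and hCOL17A1 tg aHFSC, with 1 array each. Each transgenic array was set against the wild-type array of the same cell state, so that 2 pairs of arrays carry the comparison. The names tHFSC and aHFSC are not spelled out in the labels, which give hair plucking 3 days earlier for aHFSC only in the young control and young Col17a1cKO mice. RU486, the drug that switches on the K15crePR recombinase of other lines in the series, is not mentioned for any of the 4 old groups. The labels do not name the strain background or the promoter of the transgene, and they do not say whether an array holds RNA of 1 mouse or of several. With 1 array for each label, p-values rest on the spread among all 16 arrays as estimated by the linear model, and this spread may be partly technical.

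Collagen XVII is a transmembrane collagen of the hemidesmosome, the junction that ties basal keratinocytes to the basement membrane through the integrin α6β4, plectin and the BP230 protein encoded by Dst. HFSC lie in the bulge of the hair follicle, where they are kept by transcription factors such as Sox9, Lhx2, Nfatc1 and Tbx1. Loss of collagen XVII in aging follicles is known to let stem cells leave the bulge and take on an epidermal fate, and the series asks how collagen XVII and the polarity kinase aPKCλ, encoded by Prkci, bear on stem cell division and aging. The cells were sorted for high CD34, high integrin α6 and no Sca-1, the protein that marks interfollicular epidermis (IFE, the skin surface between follicles). CD34 and Itga6 levels are therefore set in part by the sort.

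In old HFSC the transgenic arrays had lower levels of genes of the cornified epidermis, such as Flg, Lor and Krt77, and similar or slightly higher levels of bulge stem cell genes, such as Sox9 and Lhx2. No single gene passed the test across all genes. Levels are given as log2 signal minus the 75th percentile of the same array, so that a level of 0 is the 75th percentile of the array's probes. Differences are hCOL17A1 minus WT on this log2 scale, with the standard error (SE) of the linear model. Of the 31520 gene rows tested with limma, 0 passed a Benjamini-Hochberg adjusted p of 0.05 (0.0%), while 3793 had an unadjusted p under 0.05. The lowest adjusted p was 0.168. Without the hCOL17A1 tHFSC array 37 gene rows passed, and without the hCOL17A1 aHFSC array 1 passed, each time with 1 transgenic array left. Every difference between the old genotypes below is therefore a value that did not pass this test, and the words higher and lower describe the arrays only. Levels that do not overlap between genotypes are no further support, since most of these genes were picked by unadjusted p. How many of all gene rows do not overlap was not counted.

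The transgenic arrays detected fewer probes than any other array of the series. Probes well above background made up 79.0% on the WT tHFSC array and 77.8% on the WT aHFSC array, against 68.9% on the hCOL17A1 tHFSC array and 59.3% on the hCOL17A1 aHFSC array. The other 12 arrays lay between 73.9% and 79.9%. The 4 arrays were on 1 slide in 1 row, WT in columns 1 and 2 and hCOL17A1 in columns 3 and 4, so that genotype and position cannot be told apart. Dim genes were lower on the transgenic arrays and bright genes were not. When gene rows were split into quintiles by their level on the other 12 arrays, the median difference went from -0.69 in the dimmest quintile through -0.47, -0.25 and -0.05 to 0.17 in the brightest. Of 31401 gene rows with a value on all 4 arrays, 1903 were above background on both WT arrays and neither transgenic array, and 34 showed the opposite. Genes that are above background on all 4 arrays, 21261 gene rows, are reported beside the full set for that reason. In bulk RNA, fewer cells of a type and less RNA per cell cannot be told apart.

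**Figure D1:**
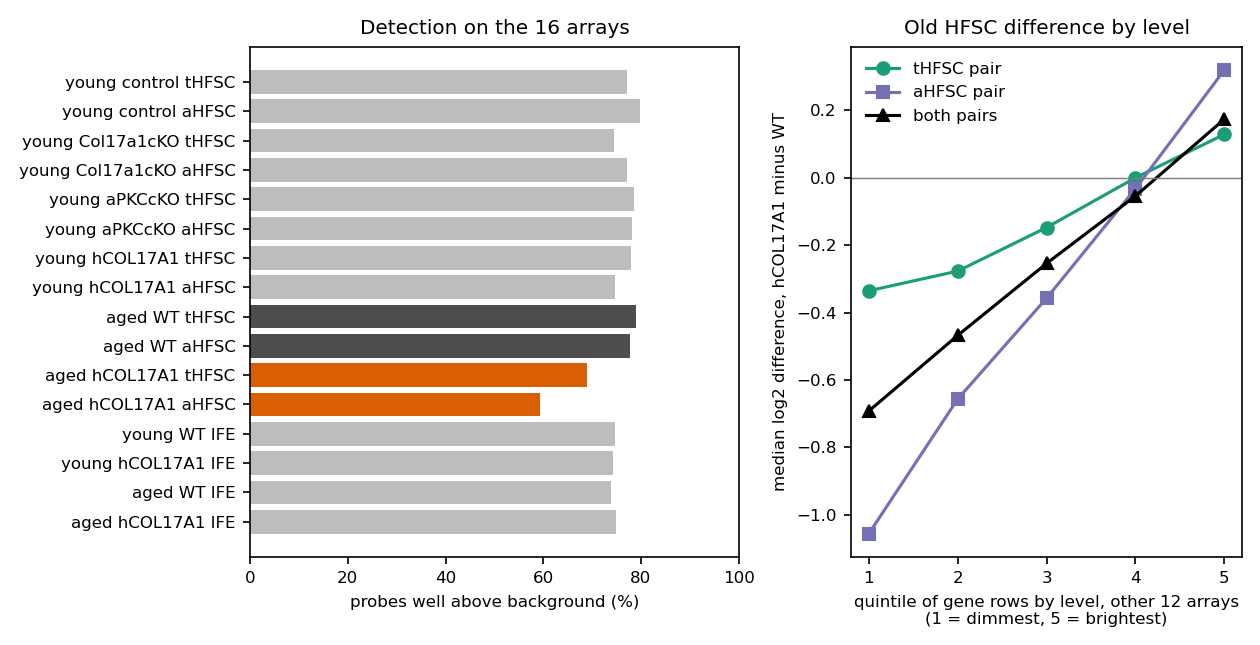
The left panel shows the percentage of probes well above background on each of the 16 arrays, with the old WT HFSC arrays in dark grey and the old hCOL17A1 HFSC arrays in orange. The right panel shows the median log2 difference (hCOL17A1 minus WT, old HFSC) in each quintile of gene rows by level, which runs from -0.69 to 0.17 over both pairs.

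The pairs of arrays did not share a common pattern across genes. Among gene rows above background on all 4 arrays, the difference in the tHFSC pair and that in the aHFSC pair had a Pearson r of 0.001 and a Spearman rho of 0.020 (across genes, which are not independent replicates), and the signs were the same for 51.8%. The SD of the differences over these rows was 0.956 in the tHFSC pair and 1.1 in the aHFSC pair, against 0.424 in the old IFE, where 1 transgenic array stood against 1 WT array. Over all gene rows, 595 were 1 log2 or more higher in both pairs (1.89%) and 2006 were 1 log2 or more lower in both (6.39%). Above background on all 4 arrays the counts were 488 higher (2.3%) and 472 lower (2.22%). Within the tHFSC pair alone, 10.3% of all gene rows were 1 log2 or more higher and 16.8% lower, and within the aHFSC pair alone 12.0% and 27.4%. Above background on all 4 arrays these shares were 9.99% and 10.9% in the tHFSC pair and 14.7% and 14.2% in the aHFSC pair. Any direction shared by both pairs was found for 18.0% (higher) and 36.6% (lower) of all gene rows, and for 23.9% and 27.9% of those above background on all 4 arrays. The median difference over all gene rows was -0.23, and over those above background it was -0.05. Across 2983 genes with exactly 2 probes above background on all 4 arrays, the mean differences of the 2 probes had an r of 0.172.

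**Figure D2:**
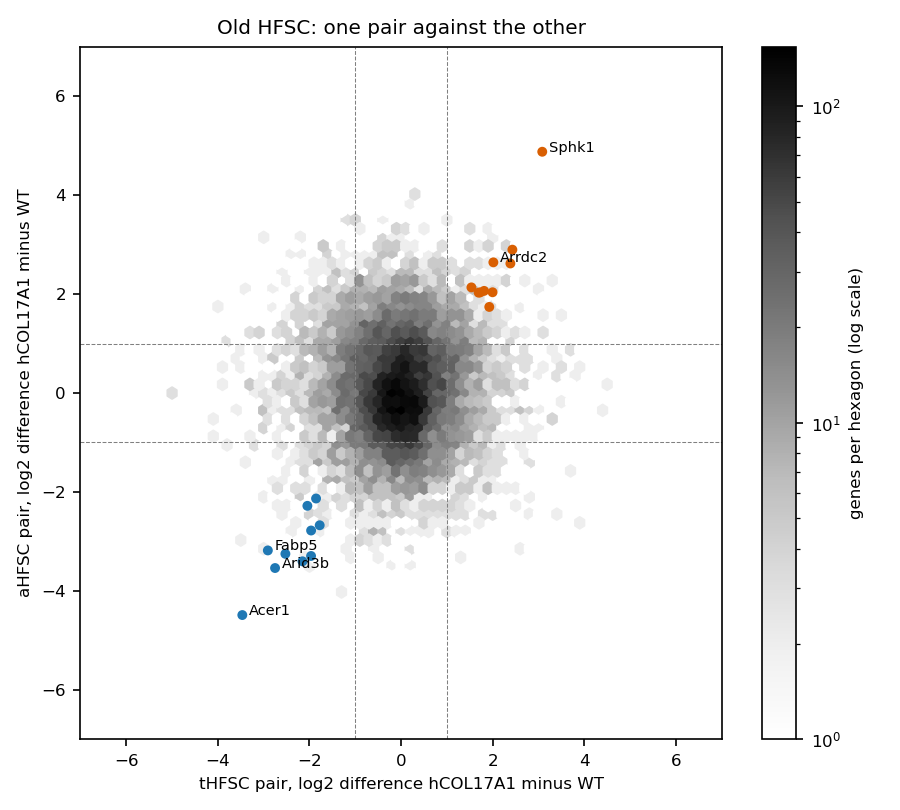
The log2 difference in the tHFSC pair (horizontal) is plotted against that in the aHFSC pair (vertical) for gene rows with an official symbol above background on all 4 arrays. Darker hexagons hold more genes on a log scale, and dashed lines lie at 1 and -1. With the rows that lack a symbol included, r was 0.001. The 10 orange and 10 blue points are the genes with the smallest unadjusted p among those 1 log2 or more apart in both pairs.

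Col17a1 and most hemidesmosome genes were slightly higher in the transgenic HFSC. The mouse Col17a1 probe, at chr19:47720894-47720953 in mm9 on the minus strand, read 7.21 and 5.85 in WT tHFSC and aHFSC, and 7.52 and 6.97 in hCOL17A1 tHFSC and aHFSC. It was higher in the transgenic array of each pair, though the WT tHFSC array lay above the hCOL17A1 aHFSC array, and the difference was 0.71 ± 0.21 (SE; limma, adjusted p = 0.29). The sources used here do not say whether this probe also reads the human transcript, so it is no check of the transgene. In the young HFSC the same probe differed by -0.04 and 0.04, and in the old IFE it read 6.92 in WT and 6.69 in hCOL17A1. All 6 hemidesmosome genes measured were among the brightest quintile and 4 were higher in both pairs, with a median of 0.43 against 0.17 for that quintile, of which 36.7% were higher in both pairs. With quantile normalization the median was 0.21, and with the mean of a gene's probes 2 of 6 were higher in both pairs. Dst, which encodes BP230, read 5.44 and 4.67 in WT and 5.62 and 5.62 in hCOL17A1, a difference of 0.56 ± 0.26. Other Dst probes above background on all 4 arrays differed by -0.75, -0.03 and 0.32 in the tHFSC pair. In the aHFSC pair these probes differed by 0.94, 0.60 and 0.27. Cd151, a tetraspanin that binds laminin-receptor integrins, differed by 0.50 ± 0.30 and Plec, which encodes plectin, by 0.37 ± 0.28. The integrin subunits differed less. Itga6 read 4.20 and 4.03 in WT and 4.19 and 4.07 in hCOL17A1 (0.01 ± 0.21), and Itgb4 differed by 0.13 ± 0.34, with directions that turned under other scalings. A second Itga6 probe differed by -1.05 in the tHFSC pair and 0.88 in the aHFSC pair.

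Stem cell genes of the bulge were at similar or slightly higher levels in the transgenic cells. Of the 23 measured, all 23 were above background on the 4 arrays, 15 were higher in both pairs and 0 were lower in both, and 0 reached 1 log2 in both. Their median difference was 0.48 (0.31 in the tHFSC pair and 0.65 in the aHFSC pair). Of these genes 15 belong to the brightest quintile, where the median was 0.17 and 36.7% of gene rows were higher in both pairs. With quantile normalization 9 were higher in both pairs and 1 was lower, with a median of 0.25. Without the WT aHFSC array the median was 0.30. Sox9, a transcription factor needed for bulge identity, read 4.82 and 4.58 in WT and 5.64 and 5.46 in hCOL17A1. Both transgenic arrays lay above both WT arrays, and the difference was 0.85 ± 0.24 (limma, adjusted p = 0.28). Lhx2, a LIM-homeodomain factor of the bulge, read 5.43 and 5.42 in WT and 6.46 and 5.80 in hCOL17A1 (0.70 ± 0.26). Its groups did not overlap either. Krt15, a keratin of bulge cells, read 6.52 and 5.92 in WT and 6.75 and 6.67 in hCOL17A1 (0.49 ± 0.18), both above the WT arrays. It was as bright in the old IFE, at 6.88 in WT and 6.39 in hCOL17A1, so its level did not set HFSC apart from IFE. Vdr, the vitamin D receptor, read 1.41 and 2.38 in WT and 2.53 and 3.03 in hCOL17A1 (0.89 ± 0.32), again without overlap. Among secreted inhibitors of Wnt signalling, Wif1 differed by 1.17 ± 0.47 and Sfrp1 by 0.98 ± 0.50. Adjusted p-values of the genes in this group, from limma, were 0.28 or more.

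The markers of the sort and of bulge identity were high on all 4 arrays. Cd34 read 6.44 and 3.71 in WT and 5.84 and 5.11 in hCOL17A1, against -3.86 and -5.08 in the old WT and hCOL17A1 IFE. It was lower in the transgenic tHFSC and higher in the transgenic aHFSC (0.40 ± 1.41), and a second Cd34 probe did the same. Tbx1 read between 6.12 and 6.79 on the 4 arrays, Nfatc1 between 5.03 and 6.31, and Lgr5, a receptor of dividing follicle stem cells, between 3.73 and 4.13. Ly6a, which encodes Sca-1, read -3.42 and -3.78 in WT and -3.55 and -4.85 in hCOL17A1, where 1 of the 2 arrays was above background.

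Genes of the differentiated epidermis were lower in the transgenic HFSC. Cornification genes encode the structural proteins, crosslinking enzymes and keratins of the cells above the basal layer. Of the 26 measured, 17 were lower in both pairs and 1 was higher in both, and 7 were 1 log2 or more lower in both (Flg, Lce1a1, Lor, Krt77, Tgm1, Krt1 and Grhl3) while 0 were 1 log2 or more higher. Of all gene rows, 6.39% were 1 log2 or more lower in both pairs and 1.89% higher. Above background on all 4 arrays these shares were 2.22% and 2.3%. The median difference of the 26 members was -1.01 (-0.66 in the tHFSC pair and -1.28 in the aHFSC pair). Among the 17 members above background on all 4 arrays, 9 were lower in both pairs and 1 was higher, with a median of -0.66 against -0.05 over all such gene rows. By level on the other arrays, 15 members belong to the brightest quintile, where 12.2% of gene rows were lower in both pairs, and the others to dimmer ones, where 25.5% to 52.9% were. The part of lower detection on the transgenic arrays in these differences was not tested. The count of members 1 log2 or more lower in both pairs was 3 among the 17 above background on all 4 arrays, and 4 of 18 where only probes above background there were used. It was 5 with normexp background correction, 5 with quantile normalization and 6 with the array median, and the medians were -0.31, -0.83 and -0.60. Without the hCOL17A1 aHFSC array the median was -0.56, and without the hCOL17A1 tHFSC array it was -1.64. No gene of the group passed the test.

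Promoters of 3 of these genes are shown because these had the most negative differences among the members with signal on at least 1 transgenic array. Each run is the 250 bases before the transcription start on the gene's strand, from RefSeq on GRCm38.p6, a later build than the mm9 coordinates of the array. Capitals mark an AP-1 motif (TGANTCA) or a TATA box (TATAAA), searched on both strands. The windows are chr3:93273296-93273545 on the plus strand for Flg, chr3:92083143-92083392 on the minus strand for Lor and chr15:101869706-101869955 on the minus strand for Krt77.
Flg: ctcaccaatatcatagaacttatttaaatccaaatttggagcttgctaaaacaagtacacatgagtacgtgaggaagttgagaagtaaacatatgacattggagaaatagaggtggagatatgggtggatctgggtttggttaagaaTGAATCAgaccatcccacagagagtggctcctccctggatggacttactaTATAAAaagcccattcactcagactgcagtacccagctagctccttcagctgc
Lor: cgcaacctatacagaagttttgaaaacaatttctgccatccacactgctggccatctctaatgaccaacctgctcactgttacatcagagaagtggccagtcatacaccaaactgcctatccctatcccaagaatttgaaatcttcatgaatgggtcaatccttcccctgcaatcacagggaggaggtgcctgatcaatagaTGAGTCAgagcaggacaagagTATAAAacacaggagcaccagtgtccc
Krt77: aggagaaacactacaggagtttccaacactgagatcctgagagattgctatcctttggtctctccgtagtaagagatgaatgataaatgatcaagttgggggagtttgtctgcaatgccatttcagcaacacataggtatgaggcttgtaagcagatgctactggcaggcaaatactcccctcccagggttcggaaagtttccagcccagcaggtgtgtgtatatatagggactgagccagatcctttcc
Flg has an AP-1 motif 103 bases and a TATA box 53 bases before the start, and Lor has them at 48 and 27 bases. Neither motif was found in these letters for Krt77. Of the 26 differentiation genes 21 matched the promoter table with 23 promoters, of which 8 held the AP-1 motif and 8 the TATA box. Of the 7 genes 1 log2 or more lower in both pairs, 6 matched with 7 promoters. Only 2 of these 7 promoters, those of Flg and Lor, held either motif. Over all 32851 promoters in the table, 6.75% held the AP-1 motif and 12.4% the TATA box. The bulge genes, with 20 promoters of 15 matched genes, had 1 with the AP-1 motif and 3 with the TATA box. The GRHL motif AACCNGGTT was in 0.240% of all promoters, and in 0 of the differentiation promoters and 0 of the bulge promoters. A match of letters is a description and not a bound site.

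Flg, which encodes filaggrin, the bundler of keratin filaments in the granular layer, read 3.50 and 3.25 in WT and -4.16 and -3.16 in hCOL17A1. The transgenic tHFSC array was not above background, and both transgenic arrays lay far under both WT arrays (-7.03 ± 1.11, limma, adjusted p = 0.18). The size depends on the probe, since 2 other Flg probes differed by -1.22 and -2.02, both lower in each pair. Lor, which encodes loricrin of the cornified envelope, read 3.80 and 3.27 in WT and -1.58 and 1.14 in hCOL17A1 (-3.75 ± 1.16, adjusted p = 0.30), with no overlap. Krt77, a keratin of differentiated epidermis and sweat ducts, read 1.74 and 1.77 in WT and 0.14 and -2.22 in hCOL17A1 (-2.79 ± 0.92). Lce1a1, a late envelope protein, read -1.64 and 0.66 in WT and -6.31 and -6.24 in hCOL17A1, where neither array was above background. The bound from the dimmest detected signal made it at least 12.4-fold lower. Such bounds set the mean of the bright group against, on each dim array, the higher of the lowest signal of any detected probe and the probe's own signal.

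The keratins of the spinous layer were also lower in both pairs. Krt1 read -0.21 and 2.38 in WT and -2.86 and 1.22 in hCOL17A1, which overlapped (-1.90 ± 0.82). Krt10, the partner of Krt1, read 3.03 and 2.21 in WT and 2.18 and 1.73 in hCOL17A1 (-0.66 ± 0.54), and a second probe differed by -1.35 and -1.56 in the tHFSC and aHFSC pairs. The crosslinking enzyme Tgm1 read -1.27 and -3.65 in WT and -3.42 and -5.37 in hCOL17A1, and the envelope precursor Ivl read -0.97 and 0.06 in WT and -1.64 and -4.46 in hCOL17A1. For each, 1 of the 2 transgenic arrays was above background, so the size of the difference is not measured on the other. Calml3, a calmodulin-like protein of keratinocytes, was the 1 member higher in both pairs (0.61 ± 0.51). Genes of the group at nearly the same level included Klf4, a transcription factor of barrier formation (0.12 ± 0.26), and Krtdap (-0.22 ± 0.41).

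The opposite order was seen in young HFSC. In the young tHFSC and aHFSC pairs (12 weeks) the differentiation genes had median differences of 0.89 and 1.67, and the bulge genes -0.61 and -0.52. Flg read 2.20 (tHFSC) and 6.41 (aHFSC) in the young controls, against 2.68 and 7.34 in the young hCOL17A1 mice. The old and young pairs share no array, but the young controls had RU486, which the labels of the young hCOL17A1 mice do not mention, so that age and treatment cannot be told apart here. In the old IFE the differentiation list had a median of -0.15. Flg read 0.11 in WT and -0.80 in hCOL17A1 IFE, and Lor 2.65 and 1.53. Across all genes, the old difference minus the young difference passed the test for 0 of 31520 gene rows (0.0%), with 3343 at an unadjusted p under 0.05. The differences named by unadjusted p were 3.47 ± 0.49 for B4gat1, a glycosyltransferase, and -5.33 ± 0.79 for Fabp5, a fatty acid carrier of keratinocytes (both limma, adjusted p = 0.22). Smyd4 (3.27) and Cstf3 (5.25) were the other positive ones, and Clec2f (-7.23) and Adamts14 (-3.08) the other negative ones.

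**Figure D3:**
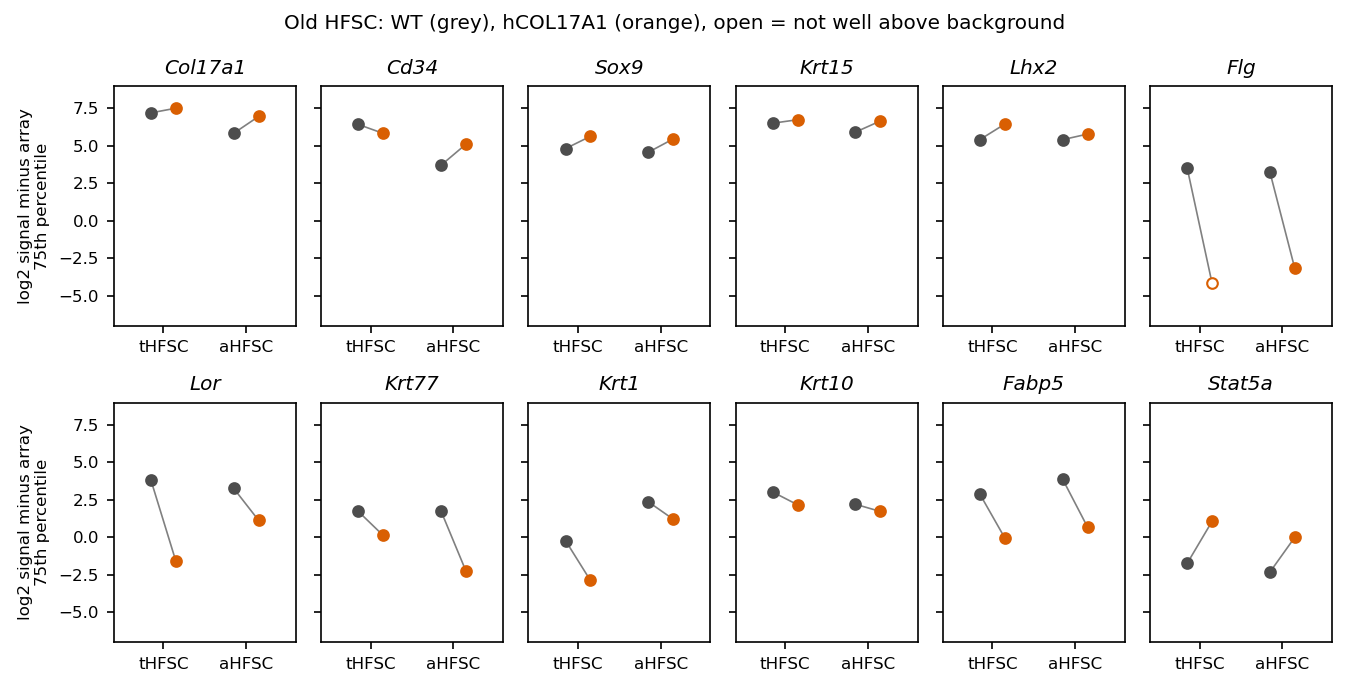
Each panel shows 1 gene, with the log2 level minus the array's 75th percentile for WT (grey) and hCOL17A1 (orange) in the tHFSC and aHFSC of old mice, joined within the pair. Sox9, Krt15 and Lhx2 are higher in the transgenic array of each pair and Flg, Lor, Krt77, Krt1, Krt10 and Fabp5 are lower, with an open point for the 1 level not well above background (Flg at -4.16).

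Markers of the IFE were far lower on the 4 HFSC arrays than on the IFE arrays, and markers of other cells were mixed between the genotypes. The summed linear level of the 8 IFE markers was 10.5 and 11.4 in WT and 6.62 and 6.59 in hCOL17A1, against 218 and 166 on the old WT and hCOL17A1 IFE arrays. Of these 8 markers 6 were lower in both pairs and 1 was higher, with a median of -0.65. Over all gene rows 36.6% were lower in both pairs and 18.0% higher. Krt1 and Krt10 are members of this list and of the differentiation list. The part of admixed IFE cells in the lower differentiation genes was not tested. T cell markers were above background for 8 and 8 of 9 on the WT arrays and for 5 and 4 on the transgenic arrays, with summed levels of 9.27 and 8.95 against 7.37 and 6.82. Langerhans and myeloid markers were above background for 10 and 10 of 11 against 8 and 8, with summed levels of 21.6 and 20.2 against 29.7 and 16.1. Mast cell and granulocyte markers were above background for 5 and 6 of 7 against 3 and 2. Of all probes, 79.0% and 77.8% were well above background on the WT arrays and 68.9% and 59.3% on the transgenic arrays. The part of this lower detection in the marker counts was not tested. The 5 fibroblast markers had a median of -0.42, with 1 higher and 2 lower in both pairs. Their summed levels were 21.5 and 26.2 in WT and 42.8 and 66.9 in hCOL17A1, which Fbln1, an extracellular matrix protein, carried at log2 levels of 4.34 and 4.69 in WT and 5.41 and 6.05 in hCOL17A1. Among melanocyte markers, Dct, an enzyme of melanin synthesis, read 0.24 and -1.52 in WT and -4.13 and -6.13 in hCOL17A1, where neither array was above background. It was at least 11-fold lower, and a second Dct probe differed by -4.12. The summed level of the 8 melanocyte markers was 5.25 and 2.93 in WT and 5.43 and 3.78 in hCOL17A1.

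The polarity genes that the series is about were split. Of 23 measured of 25 listed, 7 were higher in both pairs and 6 lower, with a median of -0.00, and 1 was 1 log2 or more lower in both (Pard6b, -1.75). Over all gene rows 18.0% were higher in both pairs, 36.6% lower, and 6.39% 1 log2 or more lower. Prkci, which encodes aPKCλ, read 4.51 and 4.03 in WT and 5.01 and 4.99 in hCOL17A1. Both transgenic arrays lay above both WT arrays, with a difference of 0.73 ± 0.30 (limma, adjusted p = 0.40). Cdc42, the small GTPase that activates the Par6 and aPKC complex, read 5.50 and 5.04 in WT and 6.01 and 6.44 in hCOL17A1 (0.96 ± 0.21, adjusted p = 0.23). A second Cdc42 probe differed by 0.15. Numa1, which anchors spindle microtubules at the cortex, differed by 0.83 ± 0.36. Prkcz, the other atypical kinase, read 0.13 and -5.73 in WT and -0.70 and -2.93 in hCOL17A1, with opposite signs in the pairs.

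Cell cycle genes differed more in the aHFSC pair than in the tHFSC pair, though this was not tested for the list. The median over 40 of 41 genes was -0.01 in the tHFSC pair and -1.14 in the aHFSC pair, and 18 of the 40 were lower in both against 3 higher, beside 36.6% and 18.0% of all gene rows. With the array median as the scale 9 were lower and 8 higher, and the median over both pairs went from -0.57 to -0.16. It was also -0.16 without the WT aHFSC array, and -1.14 without the WT tHFSC array. The aHFSC arrays stood above the tHFSC arrays by a median of 2.19 in WT and 1.33 in hCOL17A1 over these genes. Cdc20, the activator of the anaphase-promoting complex, read -0.49 and 2.58 in WT and -2.75 and -0.03 in hCOL17A1 (-2.44 ± 0.67, limma, adjusted p = 0.28). Cenpe, a kinetochore motor, differed by -1.80 ± 0.58, and Bub1 and Ccna2 were the other members 1 log2 or more lower in both pairs, a count of 4 that became 1 with the array median and 1 with normexp. Of all gene rows, 6.39% were 1 log2 or more lower in both pairs and 1.89% higher. Mki67, the proliferation marker, read -1.82 and 4.18 in WT and 0.82 and 2.68 in hCOL17A1. The aHFSC arrays of both genotypes thus lay above the tHFSC arrays of both for Mki67, while the order of genotypes differed between the states. Ccnd2, a G1 cyclin, was the 1 member 1 log2 or more higher, at 0.12 and 0.57 in WT and 2.01 and 1.65 in hCOL17A1 (1.48 ± 0.49). Among 17 genes of quiescence and cell cycle inhibition, 7 were higher in both pairs and 1 lower, with a median of 0.39 (0.65 without WT tHFSC and 0.79 without hCOL17A1 tHFSC). In the brightest quintile, to which 7 of the 17 belong, 36.7% of gene rows were higher in both pairs. Foxo3, a transcription factor of stem cell quiescence, read 3.97 and 3.51 in WT and 4.81 and 5.35 in hCOL17A1 (1.34 ± 0.53). Cdkn1b, which encodes the inhibitor p27, read 1.92 and 2.19 in WT and 3.11 and 2.92 in hCOL17A1 (0.96 ± 0.44), though a second probe differed by -0.36. For both genes the genotypes did not overlap on the probes given.

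Signalling genes with the smallest p included members of the JAK-STAT pathway, which relays cytokine signals from receptors to STAT transcription factors. Of 17 measured, 8 were higher in both pairs and 2 lower, and 2 were 1 log2 or more higher, with a median of 0.51 (0.34 without hCOL17A1 aHFSC and 1.11 without hCOL17A1 tHFSC). In the brightest quintile, to which 11 of the 17 belong, 36.7% of gene rows were higher in both pairs and 12.2% lower. Over all gene rows 18.0% were higher in both pairs, 36.6% lower, and 1.89% 1 log2 or more higher. Stat5a read -1.72 and -2.31 in WT and 1.08 and 0.01 in hCOL17A1 (2.56 ± 0.46, limma, adjusted p = 0.21). Socs2, a feedback inhibitor, read -4.14 and -4.02 in WT and -2.49 and -1.89 in hCOL17A1 (1.89 ± 0.74). Neither gene overlapped between genotypes. The receptor gene Lifr differed by 1.20 ± 0.49. Of 31 genes measured from 32 listed for BMP and TGF-beta, 12 were higher in both pairs and 5 lower, with a median of 0.20 (0.06 without WT aHFSC and 0.54 without WT tHFSC). Here too 11 belong to the brightest quintile. Id1, a target of BMP signalling, read 2.09 and 1.30 in WT and 3.45 and 3.22 in hCOL17A1 (1.64 ± 0.64), without overlap. On the probes used, the receptor genes differed in both directions, Acvr1 by 1.30 ± 0.48, Tgfbr3 by 1.41 ± 0.53 and Tgfbr1 by -1.85 ± 0.78. A second Acvr1 probe differed by -0.14 and another by 0.89. A second Tgfbr1 probe, above background on all 4 arrays, differed by 0.54 in the tHFSC pair and -0.96 in the aHFSC pair. Another Tgfbr1 probe, above background on 3 arrays, had a mean difference of -1.37. Among 37 Wnt genes, 6 were higher in both pairs and 9 lower (median -0.02). Apcdd1, an inhibitor of Wnt signalling, was above background on neither transgenic array and at least 3.03-fold lower (limma, adjusted p = 0.18). Hhip, an inhibitor of Hedgehog, was at least 2.80-fold lower on the same terms, with differences of -5.04 in the tHFSC pair and -0.89 in the aHFSC pair. Its bound rests on the tHFSC pair. In WT aHFSC Hhip read -4.10, under the lowest detected signal of -4.07 on the hCOL17A1 aHFSC array.

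Interferon genes had medians of opposite sign in the pairs, a difference not tested for the list: -0.52 in the tHFSC pair and 1.0 in the aHFSC pair over 23 of 25 genes. Of the 23, 4 were higher in both pairs and 6 lower, beside 18.0% and 36.6% of all gene rows. By 1 log2 or more, 2 were higher in both pairs and 1 lower, beside 1.89% and 6.39% of all gene rows. Bst2, an antiviral membrane protein, read -0.32 and -1.20 in WT and 0.90 and 1.36 in hCOL17A1 (1.89 ± 0.56), without overlap. The genes of wounded or stressed keratinocytes had a median of -0.52 over 22 genes, with 8 lower and 3 higher in both pairs. These are shares close to the 36.6% and 18.0% of all gene rows. Of the 22, 10 were above background on all 4 arrays. Fosl1, an AP-1 subunit of migrating keratinocytes, read -1.95 and -1.82 in WT and -4.24 and -6.26 in hCOL17A1, at least 4.72-fold lower (limma, adjusted p = 0.27).

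Ribosomal and respiratory chain genes, which are bright, were mostly higher, and adhesion lists were mixed. All 24 ribosomal protein genes measured belong to the brightest quintile. Of these 14 were higher in both pairs and 0 lower, with a median of 0.07 in the tHFSC pair and 0.74 in the aHFSC pair, while 36.7% of gene rows in that quintile were higher in both pairs. With quantile normalization 7 were higher and 1 lower. Oxidative phosphorylation had a median of 0.34, with 13 of 25 higher in both pairs and 1 lower, but with quantile normalization 9 were higher, 7 lower, and the median was 0.04. Ndufs1, a subunit of complex I, read 1.81 and 0.95 in WT and 2.96 and 2.84 in hCOL17A1 (1.52 ± 0.31, limma, adjusted p = 0.21). Among 22 genes of oxidative stress, 9 were higher in both pairs and 3 lower (median 0.32). Of the 22, 15 belong to the brightest quintile, so the share higher is near the 36.7% of that quintile. Prdx6, a peroxidase of phospholipids, differed by 1.28 ± 0.35, and 2 other detected probes of it by 1.49 and 0.46. Of 23 genes of cell-cell junctions, 12 were higher in both pairs and 4 lower (median 0.29), and 14 of the 23 belong to the brightest quintile. Ocln, a tight junction protein, read -2.74 and -4.33 in WT and -1.43 and -2.39 in hCOL17A1 (1.63 ± 0.36, adjusted p = 0.22), and its second probe differed by 1.57. Dsc3, a desmosomal cadherin of basal cells, differed by 0.99 ± 0.31 and 0.62 on its other probe. Gja1, which encodes the gap junction protein connexin 43, was lower in both pairs (-0.93 ± 0.26). In the basement membrane list, 6 of 20 were higher in both pairs and 4 lower, and with quantile normalization 4 were higher and 5 lower. Of 16 genes of integrins and focal adhesion, 4 were higher in both pairs and 6 lower. Over all gene rows 18.0% were higher in both pairs and 36.6% lower. Frem2, an extracellular matrix protein of the epidermal basement membrane, differed by 1.11 ± 0.36 and Col4a2, a chain of collagen IV, by -1.83 ± 0.80. Without the hCOL17A1 aHFSC array the list medians were 0.09 for ribosomal proteins, 0.01 for oxidative phosphorylation and 0.11 for junctions, and without the hCOL17A1 tHFSC array they were 0.70, 0.70 and 0.60. The oxidative stress median was 0.62 without that array or without WT tHFSC, and the basement membrane median was 0.05 without hCOL17A1 tHFSC.

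**Figure D4:**
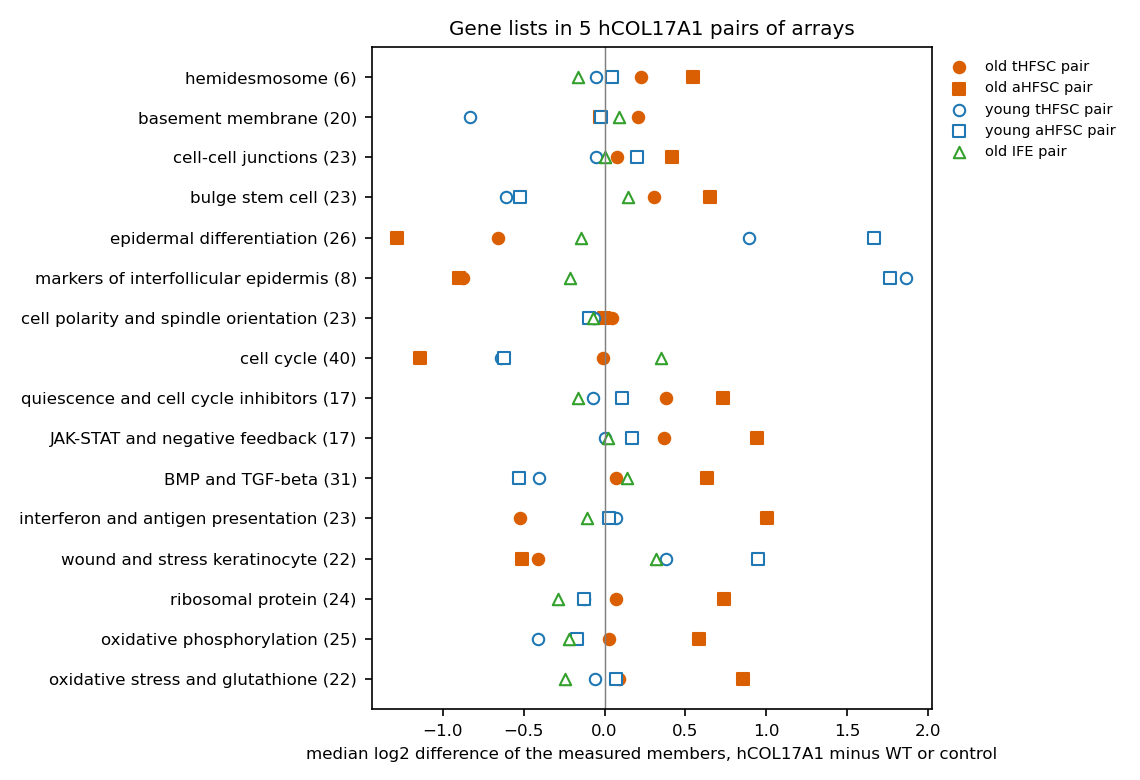
Median log2 difference (hCOL17A1 minus WT or control) of the measured members of 16 gene lists, with the number of members in brackets, in the old tHFSC and aHFSC pairs (orange), the young pairs (blue) and the old IFE pair (green). The old pairs are negative and the young pairs positive for epidermal differentiation (-0.66 and -1.28 against 0.89 and 1.67), and the reverse holds for the bulge list.

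Across the 629 distinct genes of the 30 lists of pathways and cell programs, 17 were 1 log2 or more higher in both pairs and 34 lower. Across all gene rows the same counts were 1.89% and 6.39%.

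Single genes with the smallest unadjusted p, above background on all 4 arrays and 1 log2 or more apart in both pairs, had adjusted p-values from 0.17 to 0.21. Sphk1, a kinase that makes sphingosine 1-phosphate, read -0.61 and -2.83 in WT and 2.47 and 2.05 in hCOL17A1, a difference of 3.98 ± 0.52 or 15.8-fold (limma, adjusted p = 0.17). Both transgenic arrays lay above both WT arrays, while a second Sphk1 probe differed by -0.63 in the tHFSC pair and 3.38 in the aHFSC pair. Arrdc2, an arrestin-domain protein, read -0.70 and -0.91 in WT and 1.31 and 1.73 in hCOL17A1 (2.33 ± 0.33), and its second probe differed by 2.33 and 2.87 in the pairs. The 2 Arrdc2 probes overlap, at chr8:73359065-73359124 and chr8:73359054-73359113 in mm9, so the second is not an independent reading. Foxi3, a forkhead factor of skin appendages, read -2.10 and -0.14 in WT and 0.28 and 2.48 in hCOL17A1 (2.50 ± 0.39). Fstl3, a secreted binder of activin, read -0.97 and -1.10 in WT and 1.02 and 0.94 in hCOL17A1 (2.02 ± 0.33). Utp14a differed by 2.67 ± 0.38, and Arhgef16, Vps72, Mettl27, Lyrm2 and Mrpl15 by 1.83 to 1.94. Second probes of Utp14a, Mrpl15 and Mettl27 did not follow, with mean differences of -1.20, -0.10 and 0.10.

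Of the genes lower in both pairs, Fabp5 and Acer1 belong to epidermal lipid handling. Fabp5 read 2.87 and 3.88 in WT and -0.04 and 0.69 in hCOL17A1 at chr3:10016185-10016244 in mm9 (-3.05 ± 0.56, limma, adjusted p = 0.21). Acer1, a ceramidase of the epidermis, read 2.21 and 0.86 in WT and -1.25 and -3.63 in hCOL17A1 (-3.98 ± 0.81). In the young pairs both ran the other way, with differences of 3.36 and 1.21 for Fabp5 and 2.05 and 1.67 for Acer1. Arid3b, a DNA-binding protein, read 0.41 and 0.68 in WT and -2.34 and -2.86 in hCOL17A1 (-3.15 ± 0.50), with no overlap. The others were 1500011B03Rik, Vipas39, BC055324, Tmco3, Insyn2a, Ccpg1os and 1110008P14Rik, between -2.89 and -1.99. Second probes of BC055324, with 2 of the 4 arrays above background, and of Insyn2a, with 3, had mean differences of 0.80 and -0.08, and that of 1500011B03Rik differed by 0.36 in the tHFSC pair and -2.40 in the aHFSC pair. In the old IFE all 20 of these genes differed by values between -0.56 and 0.48. Of 754 genes with an official symbol that were 1 log2 or more apart in both pairs and above background on all 4 arrays, 193 had at least 2 such probes, 65 had all of these in 1 direction and 19 had all of them 1 log2 or more apart in both pairs. The 12 higher and 7 lower include Arrdc2, whose probes overlap, and Acp5 (-2.51 ± 0.65), Pdk2 (1.38 ± 0.87) and Prcp (1.34 ± 1.05). Each gene was picked on 1 of the probes compared, and the same shares over all genes with at least 2 such probes were not counted.

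**Figure D5:**
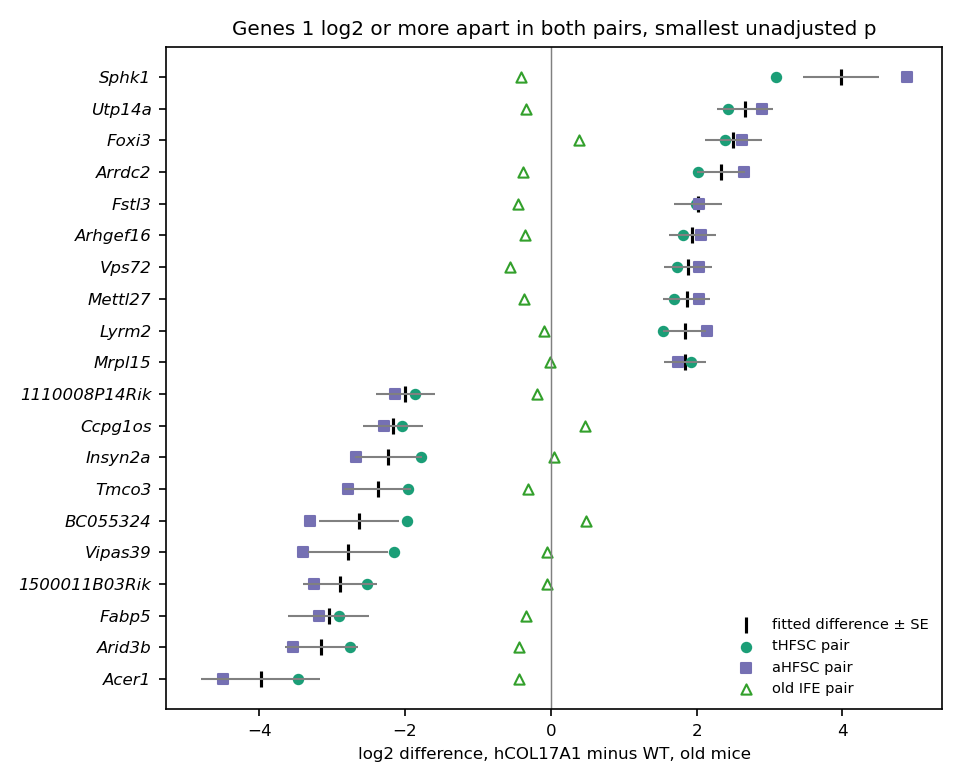
The fitted log2 difference (black bar, grey line ± SE) of 20 genes in old HFSC, with the tHFSC pair (circle), the aHFSC pair (square) and the old IFE pair (open triangle). Both HFSC pairs lie beyond 1 or -1 for all 20 genes by the choice of genes, and the IFE values lie between -0.56 and 0.48.

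Some genes were above background in 1 genotype only, and the ones given here were chosen after their values were seen, as those with the largest bounds. Entpd3, an ectonucleotidase, read -4.39 and -5.06 in WT, not above background, and 1.01 and 0.09 in hCOL17A1, at least 31.5-fold higher (limma, adjusted p = 0.17). With normexp background correction and with quantile normalization it was the 1 gene that passed, at adjusted p-values of 0.0099 and 0.045. In the old IFE it read -6.20 and -5.58, and in the young HFSC -5.25 or lower. Spred3 and Tshz3 were at least 23.9-fold and 16.5-fold higher. In the other direction Ubash3b read 0.83 and 0.63 in WT and -4.07 and -5.26 in hCOL17A1, at least 27.9-fold lower, but a second Ubash3b probe, detected on all 4 arrays, differed by -0.50. Mrps5, a mitochondrial ribosomal protein, and Ppargc1a, a coactivator of mitochondrial genes, were at least 22.6-fold and 21.7-fold lower, and a second Ppargc1a probe differed by 1.03 with 1 array above background.

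Whether the difference between genotypes differed between tHFSC and aHFSC was tested across 31401 gene rows in a model with separate shifts between cell states (4 residual degrees of freedom). That model describes the 4 old HFSC arrays exactly, so its spread comes from the other arrays only. In it 1 row passed (0.00318%), with 3902 at an unadjusted p under 0.05. It is a long non-coding RNA probe without a gene symbol at chr6:40718909-40718968 in mm9, which read 0.80 and -3.52 in WT tHFSC and aHFSC and -3.24 and 2.56 in hCOL17A1. The difference between the pairs was 10.1 ± 0.63 (limma, adjusted p = 0.041). With no filter on dim probes, or with the mean of a gene's probes, 0 passed, and with normexp background correction 34 did. Of the 4 other probes of this feature, 2 had pair differences of -0.70 and 6.02 and of -0.23 and 4.71 in tHFSC and aHFSC, and 2 had differences of -1.0 and 0.33 and of -0.62 and -0.10. Among named genes above background on all 4 arrays, the smallest p-values went to Usp42, a deubiquitinase (8.60 ± 0.89, adjusted p = 0.12), Atxn7l1 (9.24) and Fastkd5 (5.47), and to Zfp454 (-5.67), Stfa3 (-5.81) and AU041133 (-6.50). Usp42 read 10.79 on the hCOL17A1 aHFSC array and between -1.52 and 0.92 on the other 3, so that 1 array made its difference. The Atxn7l1 probe used differed by -3.80 in the tHFSC pair and 5.44 in the aHFSC pair. A second Atxn7l1 probe, above background on all 4 arrays, did not follow, with 1.08 and 1.32. Another, above background on 1 array, differed by -4.93 and 0.41. The Zfp454 probe used differed by 5.99 and 0.32, and a second, above background on 2 arrays, by -5.06 and -4.25.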

How the data were processed

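Amplified cDNA was labelled with Cy3 and hybridised to Agilent mouse arrays, 1 colour and 1 array per label, per the labels' protocols. The deposited scanner files give the intensity of each spot after the scanner's own background subtraction, per the file headers. The log2 of this intensity minus the 75th percentile of the array was computed here. A probe was kept if the scanner marked it as well above background on 2 arrays or more, which left 49785 of 55681 probes. The probe with the highest mean level stood for a gene, giving 31520 gene rows, and 20533 of these carry official symbols. Spots marked as outliers were left out, so that 31401 rows have a value on all 4 old HFSC arrays. The deposited table of log2 values was used as an alternative, and it supplied the 9264 probes missing from the truncated file of young control tHFSC.

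Differences were fitted with limma 3.58.1 in R 4.3.3 over all 16 arrays, using eBayes with a trend, two-sided p-values and the Benjamini-Hochberg adjustment at 0.05. The model has terms for the 6 HFSC conditions, a common shift between cell states, and age and transgene terms for IFE, leaving 6 residual degrees of freedom. The test of a difference between the pairs splits the shift into young, old WT and old hCOL17A1, leaving 4. The number of arrays limits the precision. On simulated data with 31068 genes and 50 changed genes of each size, 0, 10, 36 and 48 were recovered at log2 differences of 1, 2, 4 and 8.

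Named genes were the 10 highest and 10 lowest that passed, or, where fewer passed, those of smallest unadjusted p above background on all 4 arrays and 1 log2 apart in both pairs, up to 4 members of each list described, by unadjusted p, and Col17a1, Prkci, Prkcz, Cd34, Itga6 and Ly6a. Other members are named for their part in a count, or, as with Mki67, Klf4, Krtdap, Ivl and Sfrp1, after their values were seen. The comparison, lists and members were chosen with earlier results of these data known.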

Additional observations from a re-analysis of the deposited data

Results flagged for a closer look

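The row that passed the test of a difference between the pairs, the long non-coding RNA probe on chromosome 6, had a difference of 10.1 between the aHFSC and tHFSC pairs of old mice.

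For 14 of the 42 lists, the medians of both old pairs had the opposite sign to those of both young pairs. The difference between the ages was not tested for lists, the young controls had RU486, and no gene passed the test of old against young. The medians are given as old tHFSC, old aHFSC, young tHFSC and young aHFSC. Bulge stem cell genes had 0.31, 0.65, -0.61 and -0.52. Epidermal differentiation genes had -0.66, -1.28, 0.89 and 1.67, and the markers of interfollicular epidermis had -0.87, -0.90, 1.86 and 1.77. Genes of wounded and stressed keratinocytes had -0.41, -0.51, 0.38 and 0.95, and cholesterol and fatty acid synthesis genes -0.15, -0.32, 0.49 and 0.19. Among immune markers, those of Langerhans and myeloid cells had -0.40, -0.22, 0.90 and 1.90, those of T cells -0.61, -0.81, 0.39 and 0.93, and those of mast cells and granulocytes -0.20, -1.24, 0.28 and 0.057. The BMP and TGF-beta list had 0.073, 0.63, -0.41 and -0.53, and the list of p53, DNA damage and senescence 0.13, 0.24, -0.51 and -0.46. Ribosomal protein genes had 0.072, 0.74, -0.13 and -0.13, and oxidative phosphorylation genes 0.028, 0.58, -0.41 and -0.17. Glycolysis genes had 0.18, 0.24, -0.23 and -0.050, and heat shock and chaperone genes 0.018, 0.18, -0.10 and -0.40.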

How the results depend on the processing

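The test of the old genotypes passed 1 gene with normexp and 1 with quantile normalization (Entpd3 in both), 0 to 37 when an array was left out (37 without hCOL17A1 tHFSC, 13 higher and 24 lower, and 1 without hCOL17A1 aHFSC, which leave the remaining transgenic array assumed to vary like the other groups). The difference between the pairs passed 34 with normexp, 2 without the trend, 10 with the deposited value table, and 0 without a filter or with the mean of a gene's probes. Old against young passed 0 to 1 when an array was left out (1 without young control aHFSC and 1 without young hCOL17A1 aHFSC). No paired analysis was possible because the labels give no replicate numbers to pair by. Pairing by cell state is part of the model, and the 4 old HFSC arrays alone passed 0 with the cell state as a term and 0 without it. Another scaling moved the median of all gene rows from -0.23 to 0.03 (normexp), -0.01 (quantile) and 0.18 (array median), and split the gene rows 1 log2 or more apart in both pairs into 270 higher and 285 lower, 773 and 962, and 1374 and 1020, in that order, with 495 and 480 where only probes above background on all 4 arrays were kept. List members 1 log2 or more higher in both pairs numbered 6 with normexp, 44 with the array median and 83 in the tHFSC pair alone, and those lower 13, 16 and 108, with 21 by quantile normalization, 16 with the probes above background on all 4 arrays and 15 with members above background there. The polarity median was 0.0057 with normexp, 0.40 with the array median, 0.044 in the tHFSC pair alone and 0.082 to 0.26 without single arrays. The interferon median was -0.016 with the mean of probes, -0.52 in the tHFSC pair alone and -0.39 to 0.75 without single arrays, and the wound and stress median was 0.0023 with normexp. Leaving out single arrays moved Cd34 over -0.21 to 1.01, Itga6 over -0.11 to 0.13, Itgb4 over -0.16 to 0.43, Ly6a over -1.23 to 0.034 and Prkcz over -0.89 to 2.86. Itga6 was -0.033 with normexp, -0.22 with quantile normalization and -0.037 with the mean of probes, Itgb4 -0.016 and -0.084 with the first and second, and Ly6a 0.092 and 0.12. Of the gene results under alternatives 1464 kept direction and call, 4 newly passed and 15 turned sign. Since no gene passed the main test of the old genotypes, a kept call says little about the size of a difference. Alternatives that change only the trend, the cell state term or the arrays beside the 4 old HFSC arrays leave a difference nearly unchanged by construction. The count of 1464 is therefore no measure of how stable the sizes were. Of the list medians 162 moved by less than the spread, 34 moved more and 12 turned sign. The alternatives of the tHFSC pair alone and of members above background were chosen after seeing the data.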
